A study of Mus musculus with 6 samples.

Results

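Transcripts of the neurotrophin system were compared between hippocampi of p300+/- mice, which are heterozygous for p300 deficiency, and of wild-type littermates. The protein p300 is a lysine acetyltransferase and transcriptional coactivator. The set held the ligand genes Bdnf and Ntf3 and the receptor genes Ntrk2, Ntrk3, Ngfr and Sort1. Its members were all probe sets that the platform annotation assigns to 1 of these 6 genes alone. There were 24 of them among 45037 probe sets tested, 2 for Bdnf, 8 for Ntrk2, 8 for Ntrk3, 3 for Ngfr and 3 for Sort1. No probe set was assigned to Ntf3 by the annotation used here, so Ntf3 was not analysed. The groups were 3 pools of p300+/- and 3 pools of wild-type hippocampi, all from C57BL/6 females aged 3 months, with equal amounts of RNA from 4 animals in each pool and 1 Affymetrix Mouse Genome 430 2.0 array per pool. The deficiency was carried by the whole animal, and the labels do not say how the allele was made. The 3 pools of a genotype were prepared as independent replicates, so p-values measure the spread between pools.

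Neurotrophins are secreted growth factors that are made as longer proforms and cleaved to their mature forms by furin and related convertases. Brain-derived neurotrophic factor (BDNF, from Bdnf) acts through the receptor tyrosine kinase TrkB (Ntrk2), and the Ntf3 product acts mainly through TrkC (Ntrk3). The low-affinity receptor p75NTR (Ngfr) binds all neurotrophins and, with sortilin (Sort1), their proforms. In the hippocampus BDNF supports synaptic plasticity, and neuronal activity induces its transcription through CREB, a factor that recruits the coactivators CBP and p300. Ntrk2 and Ntrk3 also give shorter transcripts for receptors without the kinase, which astrocytes make in the case of TrkB.

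The stretches of DNA through which CREB could act on these genes were read from RefSeq (GRCm38.p6), which gave 11 promoter windows for 4 of the 6 genes, 7 of them for the alternative starts of Bdnf. Each window held the 250 bases before a start. The core of the CREB site, TGACG or CGTCA on the reverse strand, was found in 1 of the 11 windows and in 17.8% of all 32851 windows of that length. The full palindrome TGACGTCA, which contains the core, was in none of the 11 and in 1.55% of all windows. The match lay 35 bases before the third Bdnf start, on chromosome 2. That window (chr2:109692186-109692435, plus strand) is shown with that of the first Bdnf start (chr2:109674450-109674699, plus strand), which holds no match, and capitals mark the core.
Bdnf, start 3: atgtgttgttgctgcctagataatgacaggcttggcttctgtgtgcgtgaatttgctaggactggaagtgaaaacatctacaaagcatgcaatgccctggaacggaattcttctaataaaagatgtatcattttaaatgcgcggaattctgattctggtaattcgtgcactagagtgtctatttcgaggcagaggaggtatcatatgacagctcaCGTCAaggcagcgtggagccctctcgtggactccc
Bdnf, start 1: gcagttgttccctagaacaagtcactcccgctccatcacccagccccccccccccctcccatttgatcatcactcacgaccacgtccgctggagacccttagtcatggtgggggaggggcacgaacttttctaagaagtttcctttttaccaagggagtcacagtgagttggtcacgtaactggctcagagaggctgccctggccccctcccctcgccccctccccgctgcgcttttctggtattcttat
A match is a run of letters and no evidence of binding, and the arrays did not measure which start was used.

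Each array value was a log2 intensity relative to the probe set's own median over the 6 arrays, so it holds differences between pools and no absolute level. Coarse level classes, recovered from the number format of the values, placed 13 member probe sets in the class of log2 levels from 8 to 16, 10 in that from 4 to 8 and 1 in that from 2 to 4. The targeted gene, Ep300, was at -0.26, -0.22 and -0.50 in p300+/- pools and at 0.22, 0.38 and 0.40 in wild-type pools. Pools p300+/- 3 and wild-type 2 stood apart from the other 4 along a first principal component that carried 52.4% of the variance over all probe sets, with scores of 43.3 and 55.6 against -30.7 to -12.6. Array weights estimated by limma were 0.58 and 0.379 for these pools and 0.989 to 3.17 for the others. Of the regional markers, 6 of 6 genes of CA1 pyramidal cells, 5 of 8 of dentate granule cells and 5 of 8 of CA3 and CA2 pyramidal cells were in the highest level class. So were 3 of 8 thalamus, 2 of 7 neocortex and striatum and 3 of 9 choroid plexus markers, and 13226 of all 45037 probe sets. Choroid plexus markers averaged -2.46 in wild-type 2, against 0.11, -0.057 and 0.32 in p300+/- pools and -0.15 and 0.29 in the other wild-type pools.

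Between genotypes, no neurotrophin or receptor probe set differed past the test. Of the 24 probe sets 13 had higher and 11 lower values in p300+/- pools, with a median log2 fold change of 0.021, beside 0.0057 over all probe sets. None passed the threshold of 0.05 (limma, smallest adjusted p = 0.9999), and the background was 0% of all probe sets. The targeted gene Ep300 did not pass either, at -0.66 ± 0.127 (SE; limma, adjusted p = 0.9999), although its genotypes did not overlap. A lack of calls is thus no evidence that a gene was unchanged. At an unadjusted p under 0.05 (limma) there were 0 of the 24 probe sets, where 1.22% of all probe sets lay. The 3 p300+/- pools lay above all 3 wild-type pools in 0 of the 24 and below them in 0, against 3.19% and 2.20% of all probe sets. All 24 intervals held 0. The interval lay within a 1.5-fold change in either direction for 11 probe sets and within a 2-fold change for 17. The data thus bound the size of a difference in array signal for some probe sets and leave it wide for others. Among the 11 was Ntrk2 1444121_at (0.877 to 1.28-fold), the member in the lowest level class. Signal over background cannot be judged from these values, so a narrow interval need not bound the transcript. The standard error was above the array-wide median of 0.15 in 18 of the 24, with a range of 0.114 to 0.675.

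**Figure D1:**
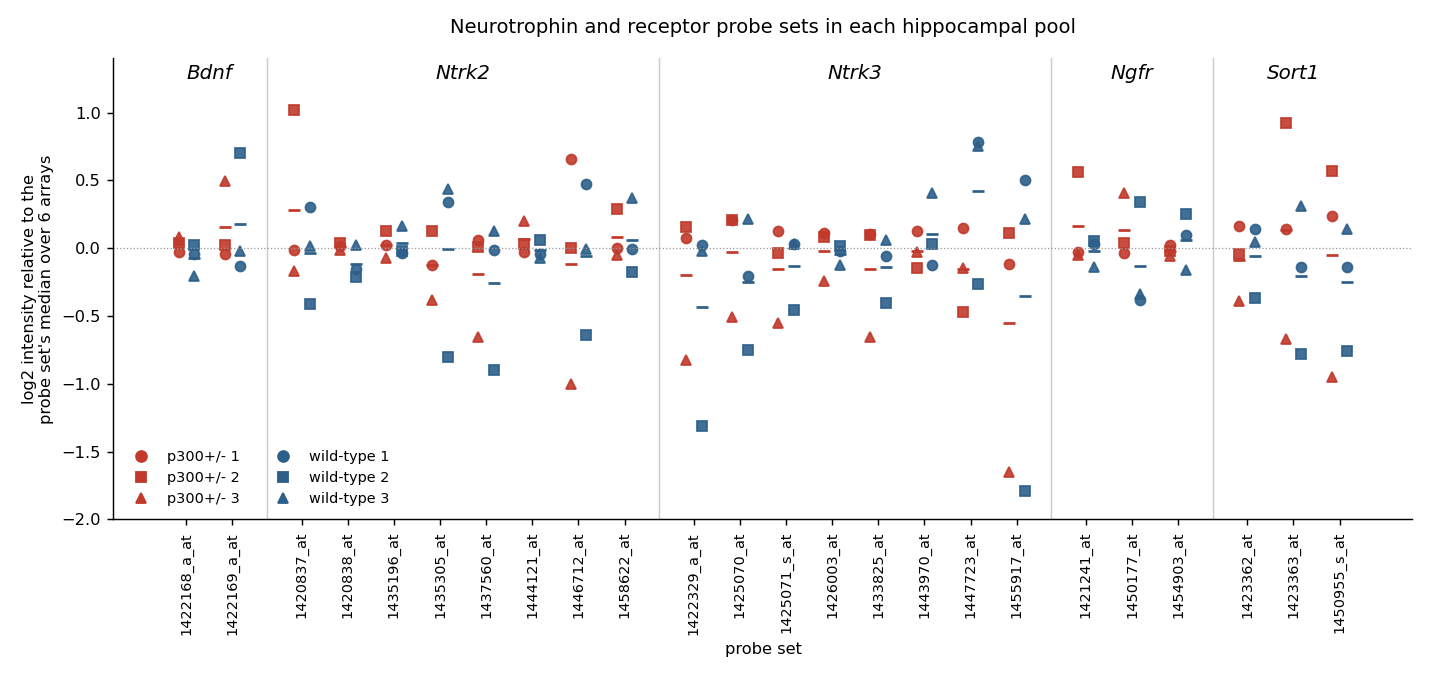
Log2 intensity of each of the 24 probe sets relative to its median over the 6 arrays (vertical axis), by probe set (horizontal axis) and gene. Points are single pools, p300+/- in red on the left and wild-type in blue on the right, and short lines are means of 3 pools. In no probe set do the genotypes separate, and the lowest points of Ntrk3 1455917_at are p300+/- 3 at -1.65 and wild-type 2 at -1.79.

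Bdnf was read by probe sets 1422168_a_at and 1422169_a_at, both designed from a single source sequence and both able to bind several transcripts of the gene. In 1422168_a_at the values were -0.025, 0.040 and 0.084 in p300+/- pools 1 to 3 and -0.044, 0.025 and -0.21 in wild-type pools 1 to 3. The genotypes overlapped, and wild-type 3 was the lowest array. The log2 fold change was 0.11 ± 0.115 (SE, n = 3 each), or 1.08-fold with a 95% interval of 0.894 to 1.30. In 1422169_a_at the values were -0.043, 0.023 and 0.50 in p300+/- pools and -0.13, 0.70 and -0.023 in wild-type pools. Here p300+/- 3 and wild-type 2 were the high arrays, 1 of each genotype, while the other 4 lay near 0. The log2 fold change was -0.022 ± 0.25 (SE), with an interval of 0.657 to 1.48-fold. Without these pools the 2 probe sets stood at 0.13 ± 0.127 and 0.069 ± 0.122 (SE).

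Ntrk2, the gene of the BDNF receptor TrkB, was read by 8 probe sets, all in the highest level class except for 1446712_at, from 4 to 8, and 1444121_at, from 2 to 4. Log2 fold changes ran from -0.12 to 0.31, with 5 above and 3 below 0. Probe set 1420838_at gave 0.016, 0.037 and -0.016 in p300+/- pools and -0.16, -0.21 and 0.024 in wild-type pools. The 3 p300+/- values lay close to 0, above wild-type 1 and 2 and around wild-type 3, and the log2 fold change of 0.13 ± 0.114 (SE) had an interval of 0.907 to 1.31-fold. Its neighbour 1420837_at, designed from the same source sequence, gave -0.013, 1.02 and -0.17 in p300+/- pools and 0.30, -0.41 and 0.013 in wild-type pools. The single high value of p300+/- 2 carried its log2 fold change of 0.31 ± 0.329 (SE), which was -0.058 without that pool.

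Several Ntrk2 probe sets were low in the pools that stood apart. In 1437560_at the values were 0.060, 0.010 and -0.65 in p300+/- pools and -0.010, -0.90 and 0.12 in wild-type pools. In 1435305_at they were -0.12, 0.12 and -0.38 in p300+/- pools and 0.34, -0.80 and 0.44 in wild-type pools. In 1446712_at they were 0.66, 0.0051 and -1.0 in p300+/- pools and 0.48, -0.64 and -0.0051 in wild-type pools. In all 3 the lowest arrays were p300+/- 3 and wild-type 2, and the log2 fold changes were 0.066 ± 0.305, -0.12 ± 0.327 and -0.057 ± 0.437 (SE). Without these pools 1435305_at was at -0.39 ± 0.141 (SE; limma, adjusted p = 1.0). The remaining probe sets had small log2 fold changes, of -0.010 ± 0.119 for 1435196_at, 0.018 ± 0.174 for 1458622_at and 0.083 ± 0.117 (SE) for the dim 1444121_at. Among them 1458622_at was also lowest in p300+/- 3 and wild-type 2, at -0.053 and -0.18.

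Ntrk3, the gene of TrkC, included the member probe set with the widest range over the arrays, 1455917_at. It gave -0.12, 0.12 and -1.65 in p300+/- pools and 0.51, -1.79 and 0.22 in wild-type pools. Its range of 2.3 over the 6 arrays was larger than that of 99.7% of all probe sets, with p300+/- 3 and wild-type 2 far below the other 4 pools. The log2 fold change was -0.20 ± 0.675 (SE), so a 2.60-fold higher level and a level of 0.293 times wild-type were both inside the interval. Probe set 1422329_a_at gave 0.074, 0.16 and -0.83 in p300+/- pools and 0.022, -1.31 and -0.022 in wild-type pools, and 1425070_at gave 0.21, 0.21 and -0.51 in p300+/- pools and -0.21, -0.75 and 0.21 in wild-type pools. These, too, were low in the same pools of each genotype, and their log2 fold changes were 0.24 ± 0.407 and 0.22 ± 0.288 (SE).

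The smallest unadjusted p of the set belonged to Ntrk3 1447723_at. Its values were 0.15, -0.47 and -0.15 in p300+/- pools and 0.79, -0.27 and 0.75 in wild-type pools. Wild-type 1 and 3 lay above all p300+/- pools and wild-type 2 lay among them. The log2 fold change was -0.58 ± 0.302 (SE), or 0.669-fold with an interval of 0.411 to 1.09 (limma, unadjusted p = 0.0941, adjusted p = 0.9999). Without p300+/- 3 and wild-type 2 it was -0.93 ± 0.216 (SE; limma, unadjusted p = 0.00566, adjusted p = 1.0). In the fit without these pools 1455917_at was at -0.36 ± 0.159 (SE; limma, unadjusted p = 0.0654, adjusted p = 1.0), and it was -0.91 without wild-type 2 alone and 0.36 without p300+/- 3 alone. With all pools kept, log2 fold changes of the remaining probe sets were -0.12 ± 0.165 for 1443970_at, 0.024 ± 0.135 for 1426003_at, -0.015 ± 0.235 for 1433825_at and -0.021 ± 0.218 (SE) for 1425071_s_at, which may also bind transcripts beyond its named one. The 8 probe sets thus split into 3 above and 5 below 0, with a median of -0.018.

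**Figure D2:**
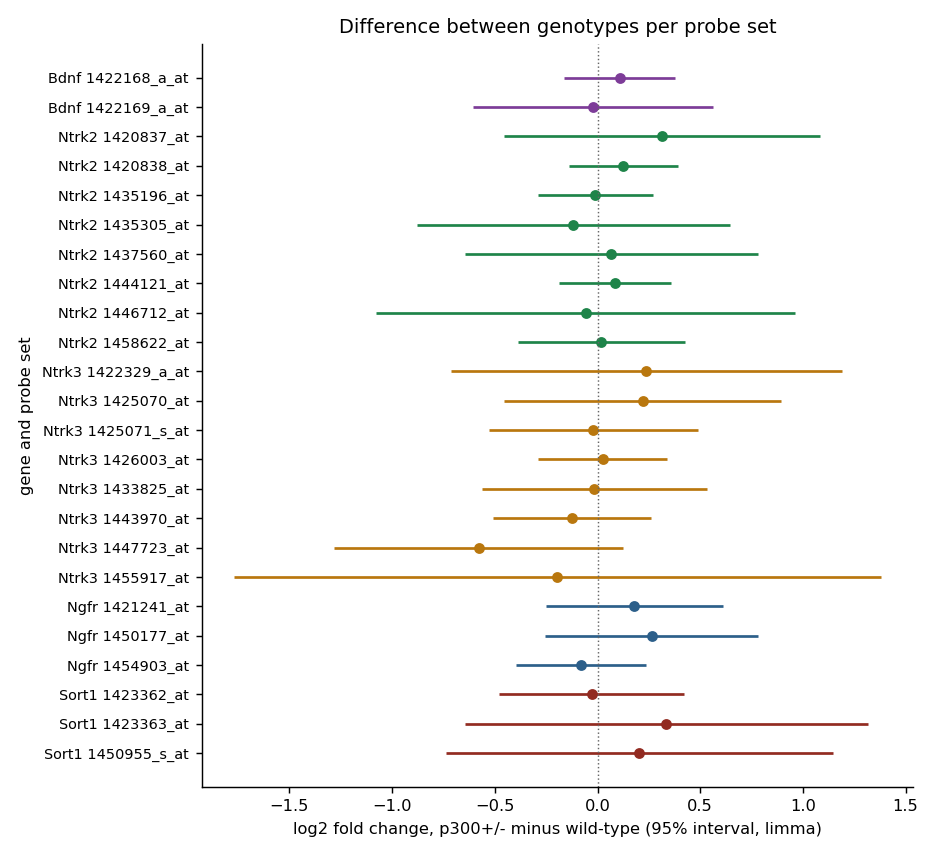
Log2 fold change of each probe set, p300+/- minus wild-type (horizontal axis), by gene and probe set (vertical axis). Points are limma estimates and lines are 95% intervals. All 24 intervals cross 0, the narrowest being those of Bdnf 1422168_a_at and Ntrk2 1420838_at, and the estimate farthest from 0 is that of Ntrk3 1447723_at at -0.58.

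Ngfr, which encodes p75NTR, was read by 3 probe sets, 2 of them from a common source sequence. In 1450177_at the values were -0.037, 0.037 and 0.41 in p300+/- pools and -0.39, 0.34 and -0.34 in wild-type pools. Wild-type 1 and 3 were the lowest arrays, while wild-type 2 was above p300+/- 1 and 2, so the genotypes overlapped. The log2 fold change was 0.26 ± 0.223 (SE), or 1.20-fold with an interval of 0.836 to 1.72, and 0.36 ± 0.119 without p300+/- 3 and wild-type 2 (limma, unadjusted p = 0.0244, adjusted p = 1.0). Probe set 1421241_at had 1 high value, 0.56 in p300+/- 2, beside -0.029 and -0.052 in the other p300+/- pools and 0.029, 0.055 and -0.14 in wild-type pools. Its log2 fold change of 0.18 ± 0.184 (SE) was -0.024 without that pool. The third probe set, 1454903_at, had the opposite sign at -0.081 ± 0.135.

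Sort1, which encodes the sorting receptor sortilin, was read by 3 probe sets designed from a single source sequence. In 1423363_at the values were 0.14, 0.92 and -0.67 in p300+/- pools and -0.14, -0.78 and 0.31 in wild-type pools. In 1450955_s_at they were 0.24, 0.57 and -0.95 in p300+/- pools and -0.14, -0.76 and 0.14 in wild-type pools. In 1423362_at they were 0.17, -0.043 and -0.39 in p300+/- pools and 0.14, -0.37 and 0.043 in wild-type pools. In each of them p300+/- 3 and wild-type 2 were lowest, and in the first of them p300+/- 2 was also far above all others. The log2 fold changes were 0.33 ± 0.42, 0.20 ± 0.403 and -0.028 ± 0.193 (SE). Without p300+/- 3 and wild-type 2 the first 2 stood at 0.45 ± 0.291 and 0.40 ± 0.174 and the last at -0.031 ± 0.135 (SE).

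When the probe sets of a gene were averaged before the fit, none of the 5 genes passed (limma, adjusted p = 0.9998 for each). The intervals of p300+/- over wild-type were 0.800 to 1.33-fold for Bdnf, 0.779 to 1.38-fold for Ntrk2, 0.646 to 1.43-fold for Ntrk3, 0.876 to 1.35-fold for Ngfr and 0.691 to 1.83-fold for Sort1. With 3 pools of each genotype, the smallest p that an exact two-sided permutation test allows is 0.1.

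Low values in p300+/- 3 and wild-type 2 recurred in the set. These pools were the 2 lowest of the 6 in 13 of 24 member probe sets (54.2%), 5 of 8 for Ntrk2, 5 of 8 for Ntrk3 and 3 of 3 for Sort1, and in 15.8% of all probe sets. They were the 2 highest in 3 of 24 (12.5%), against 21.3% of all probe sets. The 3 were Bdnf 1422169_a_at, Ngfr 1450177_at and Ntrk2 1444121_at. Without these pools 3 of the 24 probe sets, Ntrk2 1435305_at, Ntrk3 1447723_at and Ngfr 1450177_at, had an unadjusted p under 0.05 (limma), and so had 2.39% of all probe sets. These counts are a description, since probe sets of a gene read the same RNA and some share a source sequence. In bulk tissue, fewer cells of a type and less RNA per cell cannot be told apart.

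**Figure D3:**
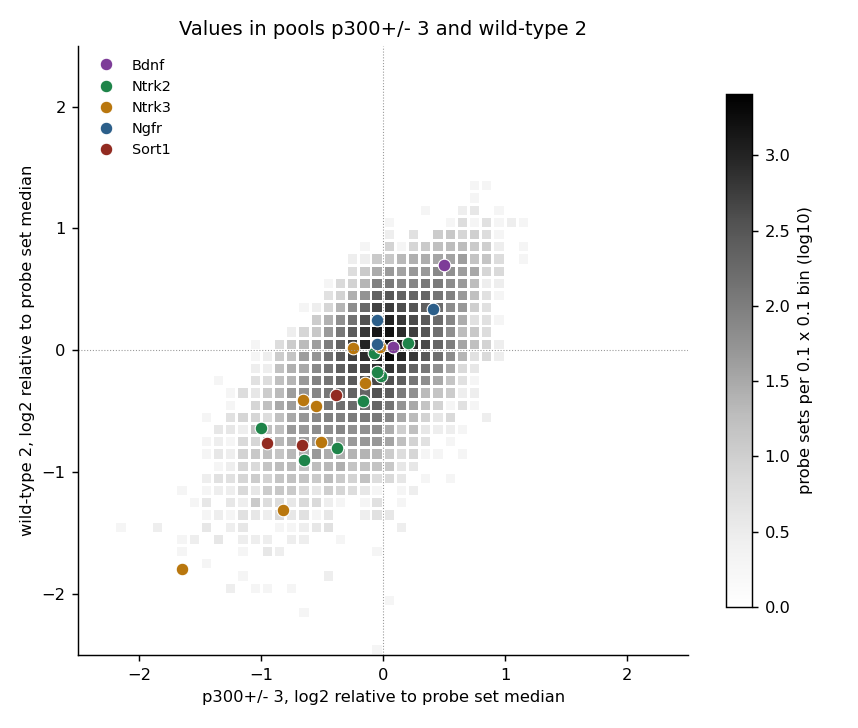
Log2 value in p300+/- 3 (horizontal axis) against that in wild-type 2 (vertical axis), each relative to the probe set's median over the 6 arrays. Coloured points are the 24 member probe sets by gene, and grey squares count all probe sets within the plotted range. The Sort1 points and most Ntrk3 and Ntrk2 points lie in the lower left, down to -1.65 and -1.79, and Bdnf 1422169_a_at and Ngfr 1450177_at lie in the upper right.

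Several marker lists moved in the same 2 pools. CA1 pyramidal cell markers averaged -0.29 in p300+/- 3 and -0.39 in wild-type 2, against -0.012 to 0.13 in the other pools, and 4 of 6 genes were lowest in these pools. Dentate granule cell markers went both ways, with 4 of 8 genes lowest and 2 highest in these pools. They averaged -0.25 and -0.087 there (-0.070 to 0.15 elsewhere). Endothelial and pericyte markers averaged -0.19 and -0.21 there (-0.035 to 0.28 elsewhere; 4 of 8 genes lowest), and markers of oligodendrocyte precursors -0.11 and -0.20 (0.0072 to 0.20 elsewhere; 4 of 6 genes lowest). Astrocyte markers averaged 0.15 and 0.046 in these pools, against -0.16 to 0.010 in the others, but the genes went both ways. The 2 pools were the highest in 4 of 10 genes and the lowest in 0, and in wild-type 2 Gfap was at -0.81 and Gjb6 at 0.72. Markers of basal forebrain cholinergic neurons, which carry p75NTR and send axons to the hippocampus, averaged 0.15 and 0.18 in the same 2 pools. In the others they averaged -0.11 to -0.016. In 3 of the 6 genes p300+/- 3 and wild-type 2 were the 2 highest pools, but in p300+/- 3 Chat was at -0.28 and Gbx1 at -0.12. Of the 6 genes, 1 was in the highest level class and 2 were in the lowest. The 3′ minus 5′ difference of the Gapdh control probe sets was -0.097 in p300+/- 3 and 0.011 in wild-type 2, against -0.049 to 0.055 in the others. The same difference for beta-actin was -0.094 and 0.20, on opposite sides of 0, against -0.12 to 0.066 in the others. Both differences come from values relative to each probe set's own median, so they compare pools and give no absolute 3′ to 5′ ratio. The part of cell composition and RNA quality in the low receptor values was not tested.

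By genotype, the cell lists that bear on the receptors overlapped. Astrocyte markers averaged -0.019, -0.16 and 0.15 in p300+/- pools and 0.010, 0.046 and -0.0045 in wild-type pools, with 4 of 10 genes higher in p300+/-. The gap junction gene Gja1 had the smallest p of that list, at -0.20 ± 0.16 (SE) in the probe set read for the list, while 4 of its others lay between -0.30 and -0.052 and the last was at 0.55 ± 0.274. Cholinergic markers averaged -0.038, -0.016 and 0.15 in p300+/- pools and -0.075, 0.18 and -0.11 in wild-type pools, with Slc18a3, the vesicular acetylcholine transporter gene, at 0.17 ± 0.153 (SE). Markers of oligodendrocyte precursors averaged 0.13, 0.20 and -0.11 in p300+/- pools and 0.0072, -0.20 and 0.17 in wild-type pools, with Pdgfra at 0.46 ± 0.328 (SE) in the probe set read for the list and at -0.18 and -0.039 in its others.

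The other genes of the pathway did not pass either. Of 128 measured genes in 6 lists, 0 were called (limma), 80 had higher and 48 lower values in p300+/- pools, with a median log2 fold change of 0.060. Over all 18193 genes read the same way 57.5% were higher and the median was 0.024. The 3 p300+/- pools lay above all wild-type pools in 7 of the 128 (5.47%) and below them in 2, Ep300 and the matrix metalloproteinase gene Mmp3 at -0.13 ± 0.111 (SE). Over all 18193 genes these shares were 3.46% above and 1.79% below.

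Among ligands and receptors outside the set, only Ntf5, the gene of a further TrkB ligand, was measured. Its dim probe set gave -0.0070, -0.14 and 0.50 in p300+/- pools and -0.073, 0.0070 and 0.11 in wild-type pools. The log2 fold change of 0.10 ± 0.18 (SE) rested on p300+/- 3 and was -0.087 without it. Of 23 genes for proneurotrophin processing and the sortilin relatives, 12 were higher and 11 lower, with a median of 0.014. A2m, which encodes a broad protease inhibitor, was at 0.72 ± 0.324, with wild-type 1 and 2 at -0.83 and -1.33 and the other pools between -0.065 and 0.10. Pcsk1, a convertase of the regulated secretory pathway, was at 0.28 ± 0.2 (SE), with values of 0.15 without p300+/- 3 and 0.45 without wild-type 2.

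Trk adaptors and signalling genes split into 21 higher and 18 lower, with a median of 0.034. The smallest p belonged to Shc1 and Shc2, adaptors of the Shc family that couples Trk receptors to Ras. Shc1 gave 0.12, 0.20 and 0.18 in p300+/- pools and -0.12, -0.16 and -0.24 in wild-type pools. This was a log2 difference of 0.34 ± 0.106 (SE; limma, adjusted p = 0.9999). The genotypes did not overlap in it, and its other probe set was at 0.21 ± 0.132. Shc2 gave 0.023, 0.11 and 0.33 in p300+/- pools and -0.17, -0.45 and -0.023 in wild-type pools. The log2 difference was 0.36 ± 0.152 (SE). Its other probe sets were nearer 0, at 0.015 and 0.11. In this list p300+/- 3 and wild-type 2 were the 2 lowest arrays in 14 of 39 genes and the 2 highest in 4. Over all probe sets these shares were 15.8% and 21.3%.

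Of 25 partners and signalling genes of p75NTR 20 were higher, with a median of 0.073. The list averaged 0.032, 0.11 and 0.0175 in p300+/- pools and 0.022, -0.13 and 0.0094 in wild-type pools, so the genotypes overlapped. Zfp369, a zinc finger gene of the NRIF family of p75NTR interactors, was at 0.29 ± 0.139 in a dim probe set and at 0.0010 ± 0.136 (SE) in a brighter one. Rtn4, which encodes the myelin inhibitor Nogo, was at 0.21 ± 0.108 in the probe set read for the list, while its 4 others lay between -0.44 and -0.044. Among 20 regulators of Bdnf transcription 11 were higher and 9 lower (median 0.0068). Ep300, the targeted gene, was at -0.66 ± 0.127. Creb1, which encodes CREB, was at 0.40 ± 0.165 (SE), with its 5 other probe sets from -0.23 to 0.46.

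Genes known to be induced by BDNF in neurons had higher values in 15 of 20 cases, with a median of 0.13, and 0 passed. Over all genes read the same way 57.5% were higher. The list averaged -0.0032, -0.079 and 0.14 in p300+/- pools and -0.0165, -0.0147 and -0.15 in wild-type pools. The genotypes thus overlapped, with p300+/- 3 highest and wild-type 3 lowest. Spry4, a feedback inhibitor of receptor tyrosine kinase signalling, gave 0.082, 0.089 and 0.032 in p300+/- pools and -0.032, -0.056 and -0.36 in wild-type pools. This dim probe set did not overlap between genotypes, at 0.22 ± 0.128 (SE), and its 3 others were at 0.046 to 0.058. The neuropeptide gene Npy was at 0.21 ± 0.168, with a single high value of 0.47 in p300+/- 3.

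**Figure D4:**
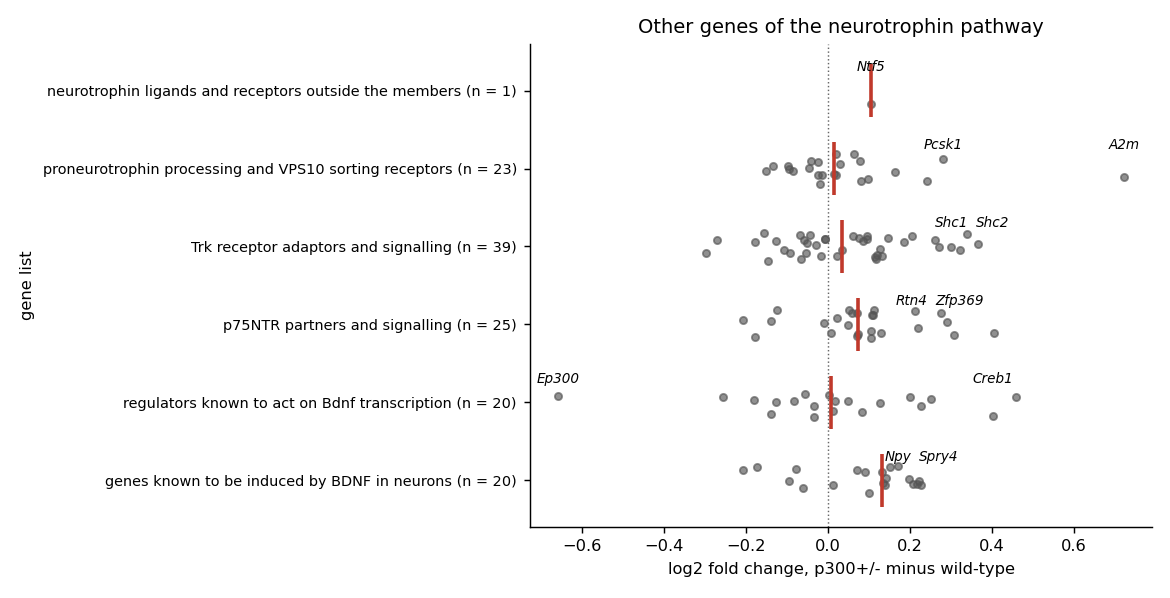
Log2 fold change, p300+/- minus wild-type (horizontal axis), of the other pathway genes by list (vertical axis). Each point is 1 gene read by its first probe set, the vertical scatter within a list has no meaning, red lines are list medians, and the genes with the smallest p are named. Medians lie between 0.0068 and 0.13, and Ep300 at -0.66 and A2m at 0.72 are the farthest points.

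For each gene of the set, the genes whose values followed its mean most closely over the 6 arrays were taken from probe sets of at least median spread. For Bdnf these were Zfp787 and Extl2 (Pearson r = 1.0 and 0.999), for Ntrk2 Riok1 and Dtna (both 0.999), and for Ntrk3 Trp53inp2 and Hdac6 (0.999 and 0.998). For Ngfr they were Eif2d and Nkx2-6 (0.989 and 0.984), and for Sort1 Xpr1 and Diras2 (both 0.997). Such values are a description over 6 arrays, picked as the highest of many. All genes share the same arrays, and those named for Ntrk2, Ntrk3 and Sort1 were, like them, lowest in p300+/- 3 and wild-type 2. In Trp53inp2 these pools stood at -0.68 and -0.77, and in Xpr1 at -1.10 and -1.07.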

How the data were processed

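RNA was extracted from single hippocampi, combined in equal amounts from 4 animals per pool and read on 1 Affymetrix array per pool, and the data were normalized in GeneSpring GX, per the labels' protocols. How probes were summarized, arrays normalized and probe sets filtered is not stated in the sources used here. The authors' deposited log2 values have a median of 0 (within 1e-06) over the 6 arrays in all 45037 probe sets tested (64 control probe sets left out), so they hold no level. The base 2 is not stated and was inferred from the binary grid of the values, which also gave the level classes. A dimmer probe set can fall into a brighter class by chance. Genes were named through the platform annotation, updated by gene identifier to RefSeq (GRCm38.p6); 34945 probe sets had a single gene. Of 149 pathway entries, 128 were measured.

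limma 3.58.1 in R 4.3.3 (lmFit, eBayes) tested p300+/- minus wild-type across all probe sets without covariates, two-sided, with Benjamini-Hochberg adjustment, a threshold of 0.05 and 95% intervals. It was tested on simulated data with independent noise in each array. Such data have no counterpart of p300+/- 3 and wild-type 2 standing apart, so the test does not cover that. The number of arrays limits the precision. List genes were read by their first probe set in file order. Named were all member probe sets, Ep300, per pathway list the 2 genes with the smallest p, for cell lists described 1 gene, and the 2 most alike genes per member. Mmp3 was named after its values were seen. The members and lists were chosen with earlier results of these data known. Alternatives covered normalization, moderation, weights, a replicate block, filters, gene means, a threshold of 0.1 and omitted arrays; the filter left out the lowest level class, since centred values have no mean level. Figures used matplotlib 3.10.9.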

Additional observations from a re-analysis of the deposited data

How the results depend on the processing

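No member, listed gene or other probe set was called in any setting run (0 calls in each, limma; threshold of 0.1 included). At an unadjusted p under 0.05 (limma) there were 0 of 24 member probe sets in the reported fit, beside 1.22% of all probe sets. There were 2 with array weights (3.62% of all) and 1 with the replicate block (1.34% of all). Without wild-type 2 there were 3 (2.56% of all), and without both p300+/- 3 and wild-type 2 there were 3 (2.39% of all). Same-numbered pools are not said to share a litter or day. Their deviations from the group means correlated at 0.609, -0.23 and -0.468 for numbers 1 to 3. Deviations in a group of 3 pools sum to 0, and p300+/- 3 and wild-type 2 stood apart from the rest. These correlations therefore cannot decide whether the numbers pair the pools. Not every pool correlated best with its own number, as p300+/- 3 did so with wild-type 2 (0.648). With the replicate block the log2 fold change of Ntrk3 1447723_at was -0.58 (limma, unadjusted p = 0.0193, adjusted p = 0.9999), and over all probe sets 604 in place of 550 had an unadjusted p under 0.05 (limma). Array-wide, 1632 did so with array weights and 1151 without wild-type 2.

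The sign of member values was unstable. It was kept in 104 of 144 values with an array left out and in 190 of 213 under the other settings. The latter count includes moderation, the replicate block and the filters, which cannot change the log2 fold change of a probe set. It therefore overstates how stable the signs were. The sign was kept in every setting by 5 of the 24 probe sets, Bdnf 1422168_a_at, Ntrk2 1420838_at and 1444121_at, Ntrk3 1447723_at and Ngfr 1450177_at. Their sizes still varied with single arrays left out, from 0.043 to 0.16, 0.078 to 0.20, 0.017 to 0.13, -0.92 to -0.40 and 0.13 to 0.50 in that order. With array weights the log2 fold change was 0.13 for Bdnf 1422169_a_at, 0.033 for Ntrk2 1435196_at, -0.042 for Ntrk2 1437560_at and 0.019 for Ntrk3 1433825_at. With quantile normalization it was 0.0010 for 1435196_at and 0.010 for 1433825_at. Without p300+/- 3 and wild-type 2 it was 0.069 for 1422169_a_at, 0.010 for 1435196_at, -0.022 for 1437560_at, 0.095 for 1446712_at, -0.036 for 1458622_at, 0.016 for 1425071_s_at, 0.10 for 1433825_at, 0.031 for Ngfr 1454903_at and -0.090 for Ntf5. Means over the probe sets of a gene were 0.043 for Bdnf, 0.053 for Ntrk2, -0.056 for Ntrk3, 0.12 for Ngfr, 0.17 for Sort1 and -0.15 for Rtn4, opposite in sign to some of their probe sets.

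With single arrays left out, values that changed sign ran from -0.19 to 0.24 for Bdnf 1422169_a_at. For Ntrk2 they ran from -0.058 to 0.54 (1420837_at), -0.062 to 0.053 (1435196_at), -0.51 to 0.11 (1435305_at), -0.25 to 0.30 (1437560_at), -0.44 to 0.39 (1446712_at) and -0.10 to 0.17 (1458622_at). For Ntrk3 they ran from -0.20 to 0.55 (1422329_a_at), -0.033 to 0.46 (1425070_at), -0.18 to 0.18 (1425071_s_at), -0.040 to 0.14 (1426003_at), -0.15 to 0.24 (1433825_at), -0.24 to 0.029 (1443970_at) and -0.91 to 0.36 (1455917_at). For Ngfr they ran from -0.024 to 0.28 (1421241_at) and -0.19 to 0.013 (1454903_at), and for Sort1 from -0.18 to 0.12 (1423362_at), -0.060 to 0.73 (1423363_at) and -0.11 to 0.66 (1450955_s_at). Values for Ntf5 ran from -0.087 to 0.23. Of 13 genes named from the lists, 8 moved by more than 1.5 times with an array left out: Ntf5, A2m (0.40 to 1.11), Pcsk1 (0.15 to 0.45), Spry4 (0.11 to 0.28), Npy (0.048 to 0.31), Slc18a3 (0.059 to 0.28), Gja1 (-0.34 to -0.070) and Pdgfra (0.23 to 0.79). The cause of these changes was not tested. Medians of the lists moved by more than 1 SD between pools in 11 of 299 cases. With centred values and 3 arrays a genotype, signal over background and small differences in level cannot be judged.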
